A study of Mus musculus with 6 samples.

Results

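The 38 genes described here encode hydrolases and membrane proteins of the lysosome and the receptors and enzymes that deliver the hydrolases to it. They are listed by name for their function, and the list was drawn up with earlier results of these data known. For each gene symbol, TPM (an abundance corrected for transcript length and scaled to 1000000 over all transcripts of a mouse) were summed over its transcripts. All 38 were found among the 35540 gene symbols of the table, and all 38 were among the 14189 genes that averaged 0.1 TPM or more and were tested. By role they are 10 proteases, 10 glycosidases, 4 sulfatases, 6 proteins of lipid hydrolysis and transfer, 4 membrane proteins and 4 components of mannose 6-phosphate sorting.

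RNA sequencing was performed on whole liver of 6 mice, 3 Surf4 fl/fl Alb-Cre+ and 3 Surf4 fl/fl Alb-Cre- controls. SURF4 is a cargo receptor that carries secreted proteins out of the endoplasmic reticulum, and the comparison asked how liver mRNA differs when hepatocytes lack it. Both groups were homozygous for a conditional allele in which loxP sites flank exon 2 of *Surf4*, on a C57BL/6J background, and they differed in a Cre recombinase transgene driven by the Albumin promoter, which is active in hepatocytes. Cells of the liver in which Cre is not active are not targeted. Replicate 2 of each genotype was a female, and replicates 1 and 3 were males. Tissues in the study were collected after an overnight fast, and the age of the mice sequenced is not given in the sources used here. The study describes the controls as littermates, without saying in the sources used here which mice shared a litter, so p-values measure the spread between these mice.

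Lysosomes are the acidic compartment in which cells break down proteins, glycans and lipids that arrive by endocytosis and autophagy. Most of their soluble hydrolases are made in the endoplasmic reticulum, receive a mannose 6-phosphate tag in the Golgi and are carried to the lysosome by receptors that bind the tag, and loss of single enzymes causes lysosomal storage diseases. Many lysosomal genes share a promoter element that is bound by the transcription factor TFEB and its relatives. In liver, hepatocytes and the resident macrophages, called Kupffer cells, both have abundant lysosomes. In bulk tissue, fewer cells of a type and less RNA per cell cannot be told apart.

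Because TPM hold no read numbers, the depth behind each value is unknown. *Surf4* mRNA (chr2:26920040-26933928, minus strand, GENCODE annotation of GRCm38) was at 59.0, 71.8 and 54.3 TPM in Alb-Cre+ replicates 1, 2 and 3 and at 92.5, 94.5 and 92.5 TPM in the controls, a log2 difference of -0.60 on the scale of log2(TPM + 0.1), used throughout (SE 0.13, limma, Benjamini-Hochberg adjusted p = 0.9999). The groups did not overlap, and the two-sided exact permutation p was 0.1, the smallest that 3 mice against 3 allow. Between 10059 and 11125 genes reached 1 TPM per mouse, and *Alb*, the hepatocyte marker, was at 38059 TPM or more in every liver. The factor that scales each library by the median of its gene ratios to the other libraries ranged from 0.8523 to 1.2153, with Alb-Cre+ replicate 2 at the top and Alb-Cre+ replicate 3 at the bottom. Summed TPM of markers of 7 liver and blood cell types had Alb-Cre+ to control ratios between 0.790 and 0.994. The sum of 8 monocyte and neutrophil markers had a ratio of 3.53. *Lcn2* alone held 2597 of its 2903 TPM in Alb-Cre+ replicate 2, and was at 16.2 to 310 TPM in the other mice. The median log2 difference of these 8 markers was 0.278, with 5 positive and 3 negative.

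The 38 genes spanned a wide range of mRNA levels. Mean abundance over the 6 mice ran from 2.04 TPM for *Idua* to 1013 TPM for *Ctsl*, with 7 genes above 100 TPM, 22 between 10 and 100 TPM and 9 below 10 TPM. *Ctsl*, which encodes the cysteine protease cathepsin L, alone held 28.3% of the summed TPM of the 38 genes, and the 5 most abundant genes, *Ctsl*, *Lamp2*, *Lamp1*, *Ctsb* and *Ctsz*, held 65.4%. The spread between mice of one genotype was small for most of these genes, with a median SD of 0.25 on the log2 scale, beside 0.33 over all genes tested.

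**Figure D1:**
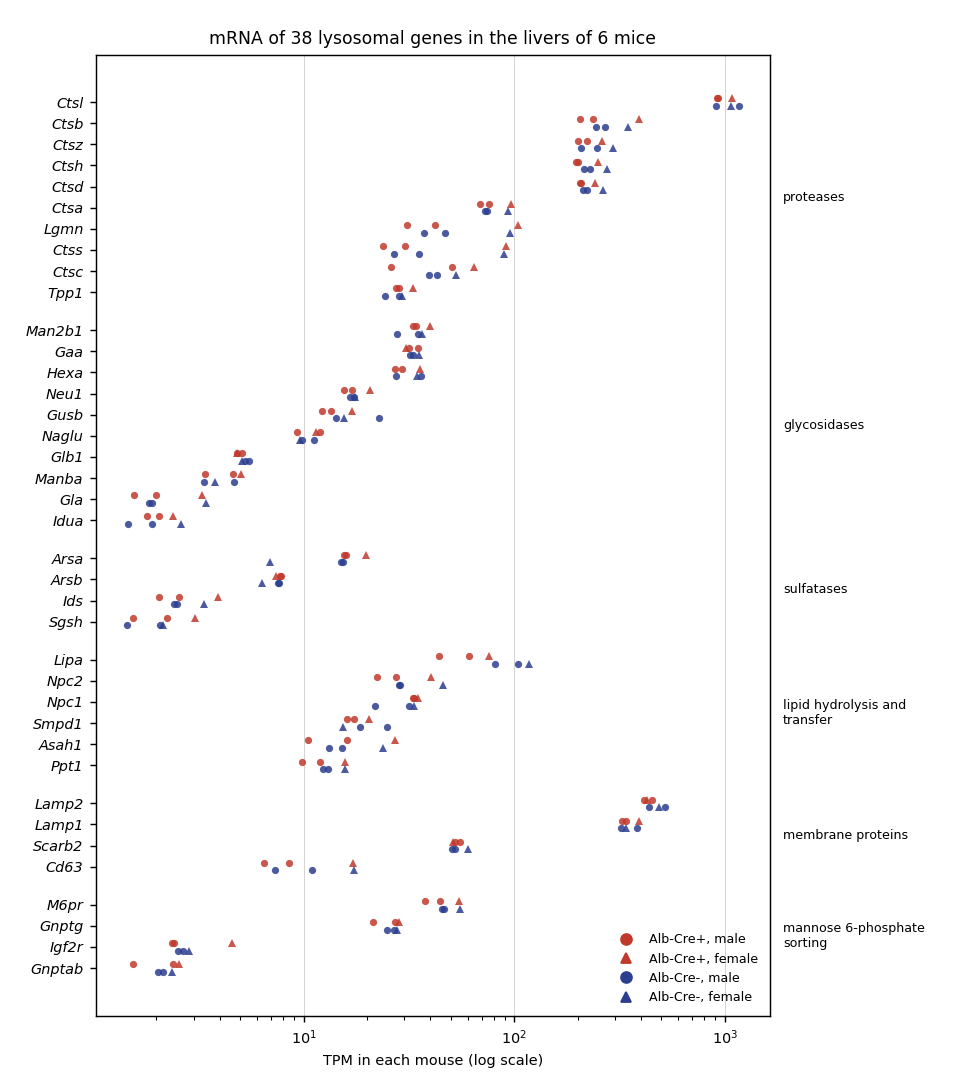
TPM of the 38 genes in each of the 6 mice on a log axis, grouped by role. Colour marks genotype and shape marks sex. *Ctsl* lies near 1000 TPM and *Idua*, *Gla*, *Gnptab* and *Sgsh* near 2 TPM, the red and blue points of most genes overlap, and the *Lipa* points do not.

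Between genotypes the lysosomal genes as a group differed little, and *Lipa* was the only member with an unadjusted p under 0.05 in limma. None of the 38 genes had an adjusted p under 0.01 in limma, where 0% of all genes tested did, and none had one under 0.05. *Surf4*, the targeted gene, had an adjusted p of 0.9999 in the same limma fit, so a gene without a call can still differ. At an unadjusted p under 0.05 there was 1 member, *Lipa* (2.63%), beside 1.76% of all genes tested. With the replicate number as a block *Lipa* was again the only member, beside 4.69% of all genes. A count of 1 member is near the share of all genes. The fitted difference was negative for 25 members and positive for 13, and 50.4% of all genes were negative. The median log2 difference was -0.055 for the members and -0.002 for all genes tested. In 36 of 38 members the difference was under 0.3 log2 units in size, and in 33 the 95% interval lay within 1 log2 unit of 0 on both sides. The genotypes did not overlap for *Lipa*, which was lower in Alb-Cre+ (2.71% of all genes were lower without overlap), and for *Arsa*, which was higher (2.18%). Each of these is 1 member of 38, a share near that of all genes. Within the 3 pairs of equal replicate number, 10 members (26.3%) were lower in Alb-Cre+ every time, beside 12.4% of all genes. In the other direction 4 members (10.5%) were higher every time, beside 11.5% of all genes. With single mice left out, the difference changed sign or moved by over 1.5 times for 36 of the 38 members, the exceptions being *Lipa*, at -0.955 to -0.559, and *Glb1*, at -0.122 to -0.070.

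**Figure D2:**
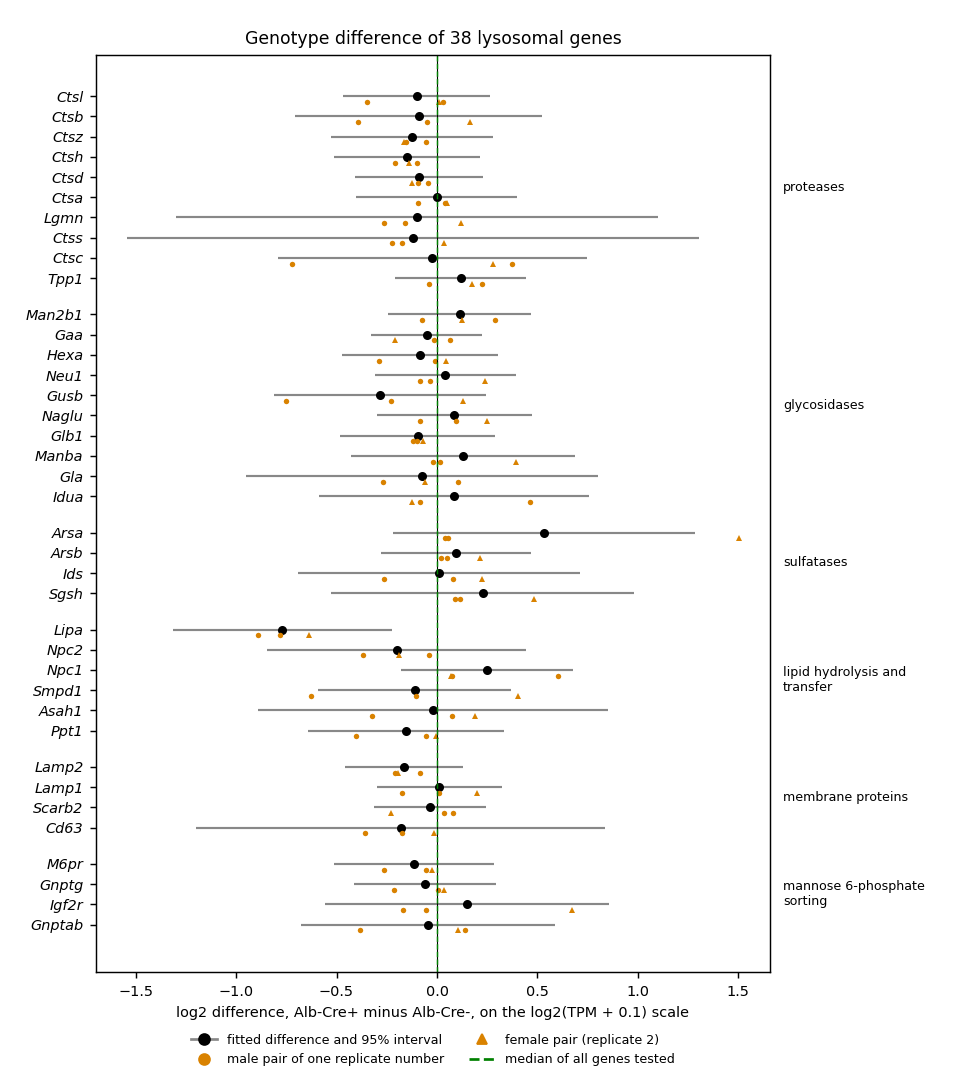
Fitted log2 difference between Alb-Cre+ and Alb-Cre- for each gene with its 95% interval, on the log2(TPM + 0.1) scale, and the difference within each pair of equal replicate number. The interval of *Lipa* lies below 0, the other 37 intervals cover 0, and those of *Ctss*, *Lgmn* and *Cd63* are wide. The fit drawn holds neither sex nor replicate number. With the replicate number as a block (not drawn) these 3 intervals were -0.379 to 0.138, -0.384 to 0.185 and -0.506 to 0.144.

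*Lipa* encodes lysosomal acid lipase, which hydrolyses the cholesteryl esters and triglycerides that lipoproteins bring into the lysosome (chr19:34492318-34527474, minus strand, GRCm38). Its mRNA was at 60.7, 75.8 and 43.7 TPM in Alb-Cre+ replicates 1, 2 and 3 and at 104.5, 117.7 and 81.2 TPM in Alb-Cre- replicates 1, 2 and 3. Each Alb-Cre+ mouse was below each control, and the groups averaged 60.1 ± 16.01 and 101.1 ± 18.4 TPM (SD, n = 3), 40.6% lower in Alb-Cre+. The log2 difference was -0.77 (SE 0.23, 95% interval -1.32 to -0.22; limma, p = 0.01245, Benjamini-Hochberg adjusted p = 0.9999), and the exact permutation p was 0.1. *Lipa* ranked 66 by p among the 14189 genes tested. Within equal replicate numbers the log2 differences were -0.78, -0.64 and -0.89, and in the 4 male mice alone the fitted value was -0.84.

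Both main *Lipa* transcripts were lower. Lipa-201, which carried 90.6% of the TPM in controls, was at 55.05, 71.0 and 40.1 TPM in Alb-Cre+ and at 94.9, 107.9 and 72.7 TPM in controls. Lipa-202 was at 5.63, 4.38 and 3.60 TPM in Alb-Cre+ and at 9.07, 9.66 and 8.49 TPM in controls. Neither transcript overlapped between genotypes, and the share held by Lipa-201 was 92.03 ± 1.56% and 90.6 ± 1.1%. Summed TPM of 12 hepatocyte markers was 74060 to 96657 in Alb-Cre+ and 93805 to 102703 in controls, a ratio of 0.864, and that of 15 macrophage and Kupffer cell markers had a ratio of 0.994. The part of either list in the *Lipa* difference was not tested.

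**Figure D3:**
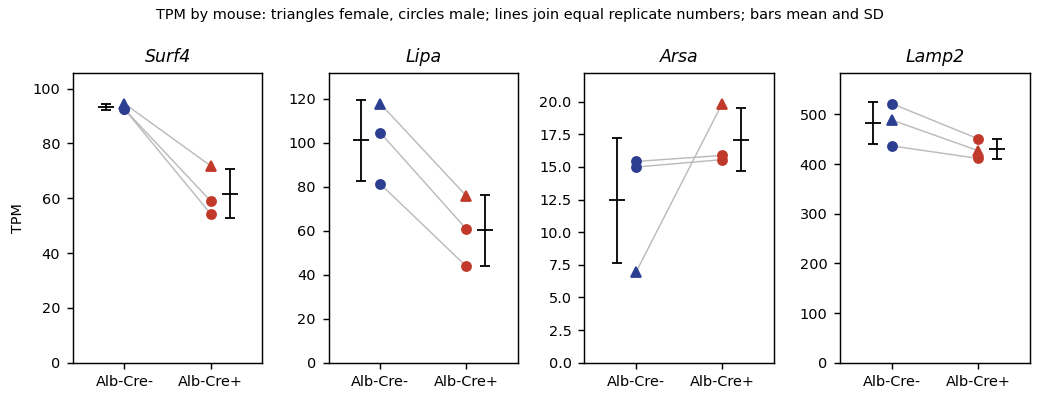
TPM of *Surf4*, *Lipa*, *Arsa* and *Lamp2* in each mouse, with lines between mice of equal replicate number and bars for the mean and SD of each genotype (n = 3). All 3 *Surf4*, *Lipa* and *Lamp2* lines fall from Alb-Cre- to Alb-Cre+, and the *Arsa* means differ through the low value of 6.94 TPM in Alb-Cre- replicate 2.

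The other lipid genes had smaller differences than *Lipa*. Of the 6 lipid genes 5 were negative and 1 was positive. *Lipa*, *Npc2* and *Ppt1* were lower in Alb-Cre+ in all 3 pairs, and *Npc1* was higher in all 3. *Npc1*, the membrane protein that exports cholesterol from the lysosome, was at 33.4, 35.1 and 33.0 TPM in Alb-Cre+ and at 31.7, 33.4 and 21.7 TPM in controls, with a log2 difference of 0.25 (SE 0.18) and overlapping groups. Alb-Cre- replicate 3 was the lowest of the 6 mice, and the difference was 0.055 without it. *Npc2*, the soluble protein that hands cholesterol to NPC1, was at 27.5, 40.1 and 22.3 TPM in Alb-Cre+ and at 28.3, 45.8 and 28.8 TPM in controls, with a log2 difference of -0.20 (SE 0.27). The highest *Npc2* value in each group was that of the female mouse. Acid ceramidase (*Asah1*), acid sphingomyelinase (*Smpd1*) and palmitoyl-protein thioesterase (*Ppt1*) had log2 differences of -0.02 (SE 0.37), -0.11 (SE 0.20) and -0.15 (SE 0.21). Summed over the 6 genes, TPM was 172 ± 39.6 in Alb-Cre+ and 215 ± 34.7 in controls (SD, n = 3), a ratio of 0.80 to which *Lipa* contributed the most.

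The 10 proteases made up most of the lysosomal mRNA and were close between genotypes. *Ctsl* was at 929, 1084 and 916 TPM in Alb-Cre+ and at 909, 1075 and 1167 TPM in controls. *Ctsb*, encoding cathepsin B, was at 237, 390 and 205 TPM in Alb-Cre+ and at 245, 347 and 269 TPM in controls. For both, the ranges of the genotypes overlapped, with log2 differences of -0.10 (SE 0.16) and -0.09 (SE 0.26). *Ctsd*, the aspartic protease cathepsin D, *Ctsh* and *Ctsz* had log2 differences of -0.09 (SE 0.14), -0.15 (SE 0.16) and -0.12 (SE 0.17), each with the Alb-Cre+ mouse below the control of the same number in all 3 pairs. *Ctsa*, the serine carboxypeptidase that also stabilises the neuraminidase NEU1, averaged 80.3 ± 14.4 and 80.1 ± 11.2 TPM. *Ctsc*, which activates granule proteases of immune cells, and *Tpp1*, a tripeptidyl peptidase, had log2 differences of -0.02 (SE 0.33) and 0.12 (SE 0.14). In all, 9 of 10 proteases had a negative difference, none with an unadjusted p under 0.05, and their summed TPM was 2179 ± 380 in Alb-Cre+ and 2321 ± 304 in controls, a ratio of 0.939.

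The glycosidases, which remove sugars from glycolipids, glycoproteins and glycosaminoglycans, were split evenly, with 5 positive and 5 negative differences and a summed TPM of 155 ± 13.5 in Alb-Cre+ and 158 ± 5.9 in controls. *Gusb*, the beta-glucuronidase gene, was at 12.2, 16.97 and 13.5 TPM in Alb-Cre+ and at 14.3, 15.5 and 22.8 TPM in controls. Its log2 difference of -0.28 (SE 0.22) rested on Alb-Cre- replicate 3 and was -0.079 without that mouse, and the groups overlapped. *Gaa*, the acid glucosidase that degrades lysosomal glycogen, was at 30.6 to 34.8 TPM in Alb-Cre+ and 32.0 to 35.4 TPM in controls. *Hexa* and *Glb1*, which act on gangliosides, had log2 differences of -0.08 (SE 0.17) and -0.10 (SE 0.16), and *Gla*, the alpha-galactosidase, one of -0.07 (SE 0.37). *Glb1* was lower in Alb-Cre+ in all 3 pairs, at 4.83 to 5.10 TPM against 5.095 to 5.475 TPM, and its ranges overlapped narrowly. *Man2b1*, *Manba*, *Neu1*, *Naglu* and *Idua* lay between 0.04 and 0.13.

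All 4 sulfatases had a positive difference, and each of these values rested on single mice. *Arsa*, encoding arylsulfatase A, was at 15.6, 19.9 and 15.9 TPM in Alb-Cre+ and at 14.99, 6.94 and 15.4 TPM in controls. Alb-Cre- replicate 2 stood below every other mouse, and the other controls lay just under the Alb-Cre+ range. The log2 difference of 0.53 (SE 0.32, 95% interval -0.22 to 1.28, limma, adjusted p = 0.9999) was 0.16 without that mouse and 0.05 in the 4 male mice. The main transcript Arsa-202 was at 5.01 TPM in Alb-Cre- replicate 2 and at 13.6 to 18.6 TPM in the other 5 mice, and the retained-intron transcript Arsa-201 was highest in that mouse, at 1.84 TPM. *Arsb* and *Sgsh*, which desulfate glycosaminoglycans, were higher in Alb-Cre+ in all 3 pairs, with log2 differences of 0.09 (SE 0.16) and 0.23 (SE 0.32). The value of *Arsb* was 0.010 without Alb-Cre- replicate 2, and that of *Sgsh* was 0.004 without Alb-Cre+ replicate 2 and 0.056 without Alb-Cre- replicate 3. *Ids* had a log2 difference of 0.01 (SE 0.30), which ranged from -0.237 to 0.211 with single mice left out.

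*Lamp1* and *Lamp2* encode the heavily glycosylated proteins that line the inside of the lysosomal membrane, and they were the most abundant members after *Ctsl*. *Lamp2* was at 451, 427 and 411 TPM in Alb-Cre+ and at 522, 489 and 436 TPM in controls, lower in Alb-Cre+ in all 3 pairs but with overlapping ranges. Its log2 difference was -0.16 (SE 0.12). *Lamp1* was at 324, 389 and 339 TPM in Alb-Cre+ and at 322, 339 and 382 TPM in controls, a log2 difference of 0.01 (SE 0.13). *Scarb2*, the receptor that carries beta-glucocerebrosidase to the lysosome, had a log2 difference of -0.04 (SE 0.12), and *Cd63*, a tetraspanin of late endosomes, one of -0.18 (SE 0.43). The 4 genes summed to 844 ± 37.2 TPM in Alb-Cre+ and 896 ± 15.6 TPM in controls.

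*Lamp2* is spliced at its 3' end into transcripts that share most of the luminal domain. They differ in the end of that domain, the membrane span and the cytosolic tail. Lamp2-201 encodes LAMP2A, known for its role in chaperone-mediated autophagy, and Lamp2-202 and Lamp2-203 encode LAMP2B and LAMP2C. In the GENCODE annotation the coding sequences are identical over 1109 bases and then use different last exons. The coding end of each is shown because it is what tells the forms apart. The last bases of the shared part are in lower case and the bases particular to each transcript, the stop codon included, are in capitals (GRCm38, minus strand, last coding exons chrX:38405432-38405571, chrX:38421712-38421851 and chrX:38402139-38402281).
Lamp2-201: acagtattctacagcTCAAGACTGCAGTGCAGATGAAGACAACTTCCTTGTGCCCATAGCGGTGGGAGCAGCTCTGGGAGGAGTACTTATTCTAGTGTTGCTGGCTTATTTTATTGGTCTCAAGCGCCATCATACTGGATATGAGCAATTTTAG
Lamp2-202: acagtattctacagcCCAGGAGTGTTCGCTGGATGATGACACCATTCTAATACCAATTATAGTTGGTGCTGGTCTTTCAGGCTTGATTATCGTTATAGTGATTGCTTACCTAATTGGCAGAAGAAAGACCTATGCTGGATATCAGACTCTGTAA
Lamp2-203: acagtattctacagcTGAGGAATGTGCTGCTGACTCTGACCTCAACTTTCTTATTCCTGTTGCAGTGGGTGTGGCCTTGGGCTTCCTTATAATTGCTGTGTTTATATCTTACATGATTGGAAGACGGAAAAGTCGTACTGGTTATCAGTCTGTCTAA

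Lamp2-201 was the main form in every liver. It was at 333, 309 and 301 TPM in Alb-Cre+ and at 394, 376 and 315 TPM in controls, and the highest Alb-Cre+ mouse lay above the lowest control. Lamp2-202 was at 112, 115 and 106 TPM in Alb-Cre+ and at 122, 108 and 118 TPM in controls. Lamp2-203 stayed between 2.97 and 5.65 TPM in all 6 mice. The shares of the 3 forms were 73.1 ± 0.7%, 25.8 ± 1.0% and 0.96 ± 0.28% in Alb-Cre+ and 74.9 ± 2.5%, 24.2 ± 2.5% and 0.92 ± 0.12% in controls (SD, n = 3), differences within the spread between mice. Of the 38 genes, 31 had 1 transcript with over 80% of their TPM. *Ctsb* was an exception, with 43.9 ± 0.2% and 45.3 ± 1.0% of its TPM on the coding transcript Ctsb-201 and most of the rest on the retained-intron transcript Ctsb-202.

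The genes of mannose 6-phosphate sorting were measured at low to moderate levels. *M6pr*, the smaller of the receptors for the tag, was at 44.5, 54.5 and 37.7 TPM in Alb-Cre+ and at 46.2, 55.5 and 45.2 TPM in controls, a log2 difference of -0.11 (SE 0.17). *Igf2r*, the larger receptor, which also clears IGF2, was at 2.43, 4.59 and 2.38 TPM in Alb-Cre+ and at 2.53, 2.85 and 2.69 TPM in controls. The female Alb-Cre+ mouse stood above the other 5 mice, and the log2 difference of 0.15 (SE 0.30) turned to -0.15 without it. *Gnptab* and *Gnptg*, subunits of the enzyme that adds the tag, had log2 differences of -0.05 (SE 0.27) and -0.06 (SE 0.15).

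Summed over all 38 genes, TPM was 3256, 4009 and 3106 in Alb-Cre+ and 3381, 4043 and 3660 in controls, or 3457 ± 484 and 3695 ± 332 (SD, n = 3), a ratio of 0.936. Each Alb-Cre+ value was below that of the control with the same number, and the ranges of the genotypes overlapped. The sums of the female pair were close, and without *Lipa* they were 3934 in Alb-Cre+ and 3925 in the control. That is not particular to *Lipa*. *Lamp2*, at 427.1 TPM in the Alb-Cre+ female and 488.6 TPM in the female control, also differed by more than the 2 sums did. The male pairs kept their order without *Lipa*.

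Genes of the same pathway outside the 38 were also close between genotypes. Among 38 other lysosomal hydrolases and cofactors tested, 20 differences were positive and 18 negative, with a median of 0.01. *Psap*, the precursor of the saposins, was at 256 to 374 TPM in Alb-Cre+ and 245 to 351 TPM in controls, and *Creg1* at 266 to 283 and 259 to 298 TPM. *Arsg*, a lysosomal sulfatase, was at 14.4, 13.9 and 10.9 TPM in Alb-Cre+ and at 28.1, 28.4 and 21.0 TPM in controls. The *Arsg* groups did not overlap, with a log2 difference of -0.98 (SE 0.18, limma, Benjamini-Hochberg adjusted p = 0.9999). It was the only gene of this list with an unadjusted p under 0.05 and the only one lower without overlap. That is 1 gene of 38, beside 1.76% and 2.71% of all genes tested. *Plbd2*, a phospholipase B-like protein, had a log2 difference of 0.23 (SE 0.11).

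Among 40 other lysosomal membrane proteins and transporters tested, 15 differences were positive and 25 negative, with a median of -0.06. *Cd164* and *Laptm4a*, the most abundant, had log2 differences of -0.16 (SE 0.17) and -0.15 (SE 0.15). *Cln8*, needed for the exit of lysosomal enzymes from the endoplasmic reticulum, was at 13.8, 12.4 and 9.63 TPM in Alb-Cre+ and at 16.04, 19.8 and 15.1 TPM in controls, without overlap (log2 difference -0.51, SE 0.19, limma, Benjamini-Hochberg adjusted p = 0.9999). *Cln8* was the only gene of this list with an unadjusted p under 0.05 and the only one lower without overlap. That is 1 gene of 40, beside 1.76% and 2.71% of all genes tested. *Glmp*, a glycosylated membrane protein of the lysosome, had a log2 difference of -0.23 (SE 0.13).

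The V-ATPase, the proton pump that acidifies the lysosome, had 6 positive and 14 negative differences among 20 subunits tested, with a median of -0.07 and none with an unadjusted p under 0.05. *Atp6v0c* and *Atp6v1e1*, its most abundant subunits, had log2 differences of 0.02 (SE 0.15) and -0.11 (SE 0.28), and *Atp6v1g1* and *Atp6v1g2* had -0.17 (SE 0.17) and -0.49 (SE 0.31). The 28 genes of enzyme sorting and adaptor complexes had 11 positive and 17 negative differences, with a median of -0.03 and none under that p. *Vps29* and *Ap3m1* led them in abundance with log2 differences of -0.07 (SE 0.13) and -0.10 (SE 0.24), and *Ap3s1* and *Gga2* had -0.23 (SE 0.13) and 0.49 (SE 0.28).

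Of 30 genes tested around TFEB and mTORC1, which switch lysosomal genes and autophagy on and off, 14 differences were positive and 16 negative, with a median of -0.02 and none with an unadjusted p under 0.05. *Tfeb* was at 3.90, 6.61 and 3.11 TPM in Alb-Cre+ and at 3.90, 2.83 and 4.29 TPM in controls, and *Tfe3* had a log2 difference of -0.15 (SE 0.33). *Gabarapl1* and *Map1lc3b*, which encode autophagosome proteins, had log2 differences of -0.22 (SE 0.13) and -0.24 (SE 0.12), and *Sqstm1*, which encodes a receptor that feeds cargo to them, one of -0.09 (SE 0.16). *Ppargc1a*, a coactivator induced by fasting, was at 2.98, 2.22 and 3.81 TPM in Alb-Cre+ and at 2.78, 12.6 and 7.03 TPM in controls, a log2 difference of -1.08 (SE 0.53) with overlapping groups.

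The promoters of the lysosomal genes were read from RefSeq (GRCm38.p6), as the 250 bases before and 50 bases after each annotated start. The table held 36 promoters of 33 of the 38 genes, and *Asah1*, *Ctsb*, *Ctsh*, *M6pr* and *Npc1* had none in it. The E-box CACGTG, which reads the same on both strands, was present in 14 of 36 promoters (38.9%), and in 7.15% of all 32851 promoters. The longer form TCACGTG on either strand, which contains the E-box and is the core of the element bound by the TFEB family, was present in 36.1% of the 36 and 3.77% of all. More than 1 E-box was found in 13.9% and 0.594%. Among promoters with at least 50% G and C, the shares with an E-box were 39.3% and 9.26%. The genes with an E-box were *Arsa*, *Ctsa*, *Ctsd*, *Ctsl*, *Gaa*, *Gla*, *Glb1*, *Gnptg*, *Igf2r*, *Lamp1*, *Lgmn*, *Naglu* and *Sgsh*. These counts are descriptions of letters in a window, and no binding was measured.

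**Figure D4:**
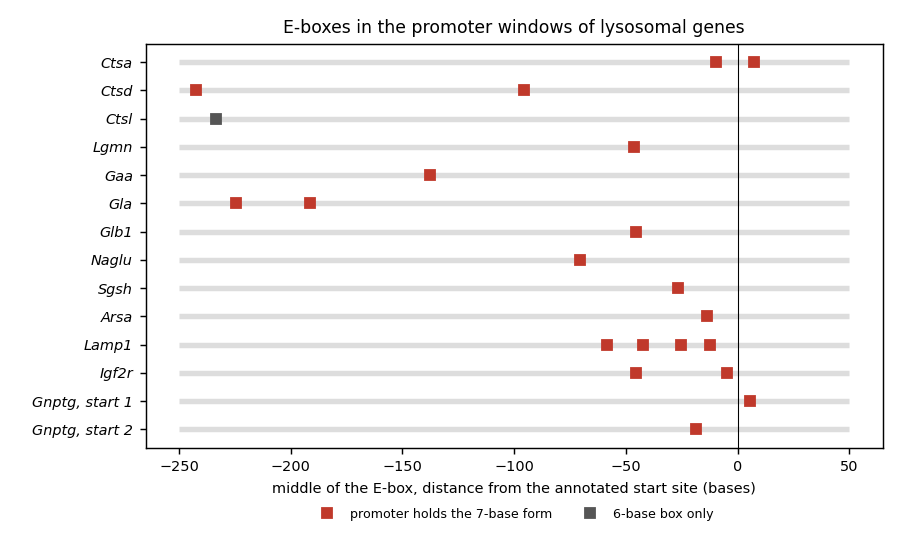
Position of each E-box relative to the annotated start site, in bases, in the 14 promoter windows that hold one (grey bars, 250 bases before to 50 after the start). Squares mark the middle of each box. The 4 boxes of *Lamp1* begin within 61 bases before its start, and the box of *Ctsl* begins 236 bases before the start and is not of the longer form.

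The windows around the boxes of *Lamp1*, which has the most, of the other promoters with a close pair, and of *Ctsl*, the most abundant member, are shown because they carry the shared element (GRCm38.p6, 5' to 3' along the gene, E-boxes in capitals).
Lamp1 (chr8:13159080-13159171, plus strand): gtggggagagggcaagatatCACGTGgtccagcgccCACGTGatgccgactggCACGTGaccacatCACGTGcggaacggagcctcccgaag
Ctsa (chr2:164833741-164833802, plus strand): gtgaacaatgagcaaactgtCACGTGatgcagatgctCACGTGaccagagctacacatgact
Gla (chrX:134601174-134601252, minus strand): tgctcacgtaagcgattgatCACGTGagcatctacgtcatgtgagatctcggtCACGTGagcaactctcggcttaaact
Igf2r (chr17:12769688-12769774, minus strand): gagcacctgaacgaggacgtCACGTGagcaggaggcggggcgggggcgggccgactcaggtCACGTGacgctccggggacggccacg
Ctsl (chr13:64370731-64370770, minus strand): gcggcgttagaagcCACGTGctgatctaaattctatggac

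The same search found no E-box in the promoter of *Lipa*, the member with the smallest p between genotypes. Its 250 bases before the start are shown for comparison (chr19:34527475-34527724, minus strand, GRCm38.p6, no capitals because no box was found).
Lipa: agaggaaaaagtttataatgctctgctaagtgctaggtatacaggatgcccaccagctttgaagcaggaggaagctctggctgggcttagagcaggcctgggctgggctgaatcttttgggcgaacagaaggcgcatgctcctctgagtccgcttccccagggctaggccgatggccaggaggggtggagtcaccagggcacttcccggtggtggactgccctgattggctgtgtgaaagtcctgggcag

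The genes with and without an E-box had similar medians of level and of genotype difference. The 13 genes with a box had a median of 26.0 TPM and a median log2 genotype difference of -0.05, with 8 negative. The 20 genes without one had a median of 23.6 TPM and a median log2 difference of -0.06, with 13 negative.

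Several members differed more between the female and male mice than between the genotypes. Sex was compared as the 2 female mice minus the 4 male mice with genotype in the model, and since both females carry replicate number 2, sex and that number cannot be told apart. In TPM the median log2 difference of all genes tested was 0.26, and after scaling by the median of ratios it was -0.01, so the values of members and of cell type markers are given on both scales. The members' median was 0.27 in TPM and -0.01 after scaling, on both scales close to that of all genes. In TPM 34 members were higher in females and 4 lower (76.7% of all genes were higher), and after scaling 19 were higher and 19 lower. The 2 females were above all 4 males for 22 members in TPM (57.9%, beside 36.6% of all genes) and for 8 after scaling (21.1%, beside 18.7%). With an unadjusted p under 0.05, 15 members were higher in TPM (39.5%, beside 25.6% of all genes), and after scaling 7 were higher and 4 lower, beside 13.2% and 14.3% of all genes. The number of members under that p in TPM fell to 6 without the Alb-Cre+ female and was 11 to 15 without any one of the other mice.

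*Ctss*, *Lgmn* and *Cd63* had the largest sex differences among the members on both scales. *Ctss*, encoding cathepsin S, which trims the invariant chain in antigen-presenting cells, was at 91.4 TPM in the female Alb-Cre+ mouse and 89.3 TPM in the female control, and at 30.4, 23.9, 35.4 and 26.9 TPM in the males. The females were 3.098 times the males in TPM and 2.559 times after scaling, with a log2 difference of 1.64 in TPM (SE 0.17, limma, Benjamini-Hochberg adjusted p = 0.007912) and 1.36 after scaling (SE 0.12, adjusted p = 0.008725). It was the only member with an adjusted p under 0.01, beside 0.514% of all genes, and again the only one after scaling, beside 0.438%. With single mice left out, the adjusted p of *Ctss* was 0.008994 without Alb-Cre- replicate 1 and above 0.01 without any of the others, at 0.01495 and 0.02029 without Alb-Cre+ replicates 1 and 3, 0.01676 without Alb-Cre- replicate 3, and 0.1781 and 0.09613 without the Alb-Cre+ and the Alb-Cre- female. The log2 difference then stayed between 1.53 and 1.76.

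*Lgmn*, encoding legumain, an asparaginyl endopeptidase, was at 103.7 and 95.4 TPM in the females and at 41.9, 31.0, 46.8 and 37.1 TPM in the males. Its log2 difference was 1.36 in TPM (SE 0.18, limma, Benjamini-Hochberg adjusted p = 0.01424) and 1.07 after scaling (SE 0.12, adjusted p = 0.01269). *Cd63* was at 17.2 and 17.3 TPM in the females and at 8.54, 6.47, 10.97 and 7.32 TPM in the males, a log2 difference of 1.07 in TPM and 0.79 after scaling. For all 3 genes both females lay above every male. With *Npc2*, *Ctsb* and *Asah1*, 6 members had an adjusted p under 0.05 in TPM, beside 7.18% of all genes, and after scaling 3 did, *Ctss*, *Lgmn* and *Cd63*, beside 7.07%. The 6 in TPM became 0 without either female, 3 without Alb-Cre- replicate 1 and 2 without any one of the other males. *Gla*, *Asah1*, *Npc2* and *Ctsb* had log2 differences of 0.85, 0.90, 0.69 and 0.63 in TPM and 0.58, 0.61, 0.40 and 0.34 after scaling, with an unadjusted p under 0.05 on both scales.

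Markers of liver macrophages and Kupffer cells moved with these genes. All 15 markers were measured above 0 in every mouse and were higher in both females than in all males. Their summed TPM was 1003 and 938 in the females and 277 to 405 in the males, a ratio of 2.72, or 2.245 after scaling. The sums of monocyte and neutrophil markers had a female to male ratio of 12.3 in TPM and 9.611 after scaling. The size of that in TPM rested on the *Lcn2* level of the Alb-Cre+ female, being 3.274 without that mouse. All 8 of these markers were higher in females with an unadjusted p under 0.05 on both scales (limma). For 7 of them in TPM both females lay above every male. Their median log2 difference was 2.25 in TPM and 1.98 after scaling, beside 1.48 and 1.19 for the macrophage and Kupffer cell markers. The sums of lymphocyte, stellate and sinusoidal endothelial markers had ratios of 1.92, 1.70 and 1.48 in TPM and 1.619, 1.41 and 1.228 after scaling. The sum of cholangiocyte markers had a ratio of 1.09 in TPM and 0.901 after scaling, and that of red blood cell markers 0.406 and 0.334. The hepatocyte marker sum had a ratio of 1.019 in TPM and 0.845 after scaling. Of the 12 hepatocyte markers, 1 was higher and 3 were lower with an unadjusted p under 0.05 in TPM, and 0 were higher and 5 lower after scaling. The part of these cell types in the sex differences of *Ctss*, *Lgmn*, *Cd63* and the other members was not tested.

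**Figure D5:**
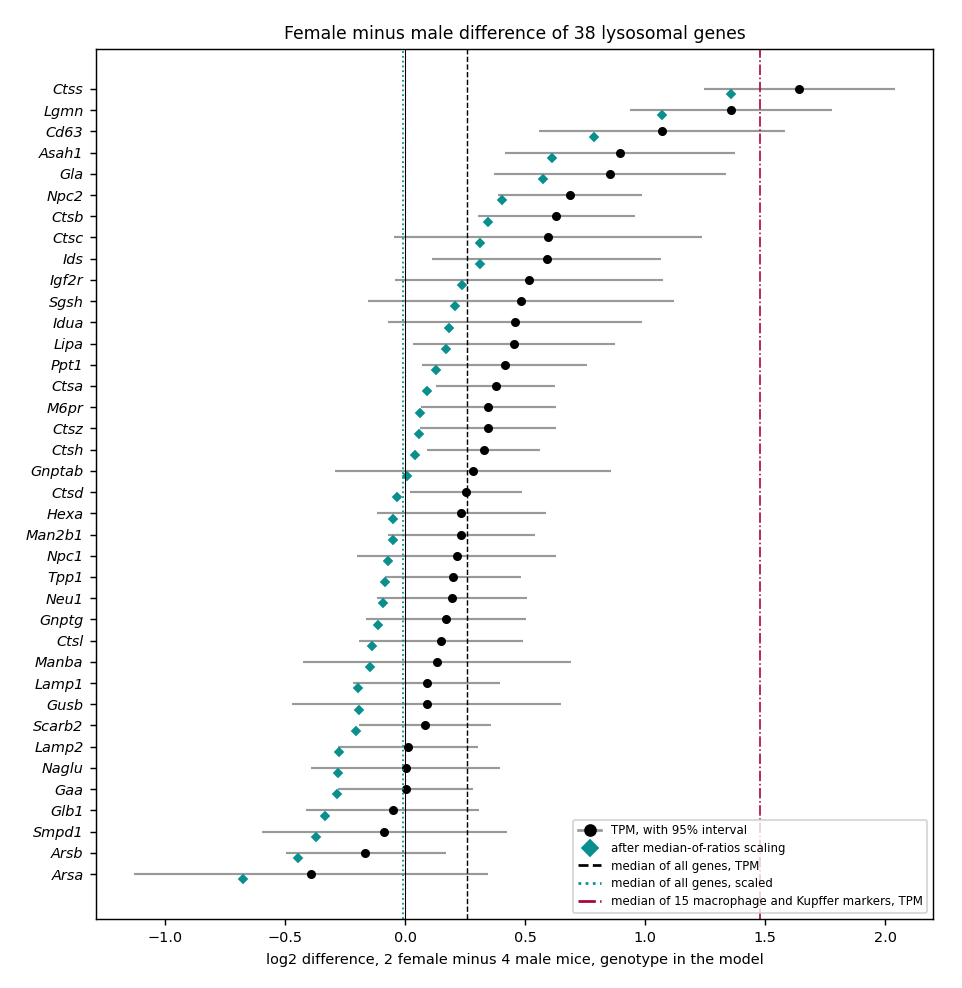
Log2 difference between the 2 female and 4 male mice for the 38 genes, in TPM with its 95% interval and after scaling by the median of ratios, with the medians of all genes and of 15 macrophage and Kupffer cell markers as lines. *Ctss* and *Lgmn* lie near the macrophage marker line at 1.48 in TPM, and most members lie near the median of all genes on either scale.

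At the other end, some members were lower in females once the scaling was applied. *Arsa*, *Arsb*, *Glb1* and *Naglu* had log2 differences of -0.68, -0.45, -0.33 and -0.28 after scaling, with an unadjusted p under 0.05 and none with an adjusted p under 0.05 (limma). In TPM the same genes had -0.39, -0.17, -0.05 and 0.00, so their direction or size depended on the scale. The value of *Arsa* rested on the low female control described above. The abundant membrane proteins *Lamp1* and *Lamp2* had 0.09 and 0.01 in TPM and -0.20 and -0.27 after scaling, and *Ctsl* 0.15 and -0.14. *Lipa* had 0.45 in TPM and 0.17 after scaling, and its genotype difference was negative in the female pair and in both male pairs.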

How the data were processed

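RNA was sequenced from the livers of 6 mice, grouped by the genotype in the labels. The authors deposited TPM per transcript and mouse, adding up to 1000000 in each mouse; the table is labelled as salmon output, while the methods and the processing notes name STAR and RSEM with build GRCm38, versions not given in the sources used here. A deposited table of the authors' DESeq2 comparison (mean counts, log2 fold changes, standard errors, test statistics, p-values) was not used. In that comparison the study reported transcripts up and down at a false discovery rate under 0.01, where the limma fit of TPM called none. Depth is not known from TPM, so no counting error is given.

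TPM were summed per gene symbol, and 163 of 116748 transcripts without a symbol (0.0515 to 0.0887% of TPM) were left out. The 14189 genes averaging 0.1 TPM or more entered a limma fit (3.58.1, R 4.3.3) of log2(TPM + 0.1) on genotype alone with trended variances, with Benjamini-Hochberg adjustment over these genes and a threshold of 0.01. Fold changes on this scale understate those of low genes. Sex was tested with genotype in the model. Exact permutation tests used scipy 1.17.1. On simulated data with the libraries of the genotype comparison and 14189 genes, 77% of changes of 3 log2 units and 30% of 1.5 were called, with 1 unchanged gene.

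The members and all gene lists were chosen with earlier results of these data known. All members are named, and of each other list the most abundant pair and the pair with the smallest p, with *Tfeb*, *Tfe3* and *Surf4*. Markers of 8 cell types were summed. Deviations from the genotype means correlated over genes for equal replicate numbers (0.367, 0.588 and 0.370) and from -0.444 to 0.171 for unequal ones. Replicate 2 is the only female of each genotype, so sex alone could give its values. Among the males, equal numbers had 0.367 and 0.370 and unequal ones 0.091 and 0.171. The numbers, which come from the labels, were taken to pair the mice in the replicate block and in the differences within pairs. The main fit did not use them, so its SE and p include the spread between sexes and numbers. The study calls the controls littermates, but the sources used here do not tie a number to a litter. Alternatives were another pseudocount or minimum, no minimum, no variance trend, median-of-ratios scaling, sex as a covariate, the replicate block, the most abundant transcript and leaving out each mouse, and, added after seeing the data, both female mice.

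Gene positions are from GENCODE M21, promoters from RefSeq GRCm38.p6; transcript versions in the table are later than M21 and were matched without the version.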

Additional observations from a re-analysis of the deposited data

How the results depend on the processing

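No member passed the adjusted threshold between genotypes under any of the 17 alternatives, and *Lipa* kept a negative difference in all of them, from -0.955 to -0.559, with an unadjusted p of 0.0002145 to 0.03891 and a Benjamini-Hochberg adjusted p of 0.2759 to 1 in limma. On simulated data with independent noise, 30% of changes of 1.5 log2 units in the more abundant genes were called. Without read numbers the precision of low genes such as *Idua*, *Gla* and *Sgsh* is unknown.

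With a block for the replicate number, the log2 difference of *Lipa* was -0.770 (SE 0.098, adjusted p = 0.32) and its rank by p moved from 66 to 17. The block changed no call of a member. Over all genes it raised the number with an unadjusted p under 0.05 from 250 to 666 and left 0 with an adjusted p under 0.01.

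The signs of the small differences were not stable. Of 608 member values under the alternatives, 558 kept the sign and 50, from 24 members, did not, while 14 members kept it throughout. When single mice were left out, the log2 differences of members that changed sign ranged between these limits, *Asah1* -0.370 to 0.307, *Cd63* -0.580 to 0.133, *Ctsa* -0.141 to 0.111, *Ctsb* -0.366 to 0.097, *Ctsc* -0.298 to 0.355, *Ctsd* -0.165 to 0.004, *Ctss* -0.707 to 0.389, *Gla* -0.363 to 0.205, *Gnptab* -0.177 to 0.170, *Gnptg* -0.139 to 0.067, *Ids* -0.237 to 0.211, *Idua* -0.107 to 0.289, *Igf2r* -0.154 to 0.308, *Lamp1* -0.065 to 0.082, *Lgmn* -0.607 to 0.298, *M6pr* -0.251 to 0.015, *Man2b1* -0.005 to 0.187, *Neu1* -0.074 to 0.128, *Npc2* -0.431 to 0.027, *Ppt1* -0.330 to 0.001, *Scarb2* -0.083 to 0.039 and *Smpd1* -0.267 to 0.072. The median over the members then ranged from -0.171 to 0.093, and that over all genes from -0.124 to 0.112, both lowest without Alb-Cre+ replicate 2 and highest without Alb-Cre+ replicate 3. The number of genes with an adjusted p under 0.01 was 0 or 1. Without both female mice the signs of these members changed, *Gaa* 0.026, *Ids* -0.094, *Igf2r* -0.112, *Lamp1* -0.082, *Manba* -0.003, *Neu1* -0.060, *Scarb2* 0.060, with a median of -0.107 for members and -0.082 for all genes. With the most abundant transcript only, those of *Asah1* 0.079, *Gnptab* 0.028, *Ids* -0.007 did. The cause was not tested.

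Between the sexes the count of members with an adjusted p under 0.01 was 0 or 1 with a mouse left out and 0 with no minimum of TPM, when *Ctss* had an adjusted p of 0.02747. The count over all genes with an adjusted p under 0.05 was 1019, and 16 or 15 without the female Alb-Cre+ or Alb-Cre- mouse, where a single female remained and was assumed to vary like the males.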
